A study of Mus musculus with 24 samples.

Results

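The transcripts of oligodendrocytes were compared between C57BL/6J (B6) and DBA/2J (D2) mice, 2 inbred strains, in single-nucleus RNA sequencing (snRNA-seq) of the ventral hippocampus. The members were the gene symbols with at least 1 count in the oligodendrocyte (ODC) libraries of each strain, 17706 of the 33902 symbols in the table, so that a symbol seen in 1 strain alone could not enter. Of these, 11291 had enough counts to be tested. There were 2 libraries per strain, each from tissue of about 2 adult males aged 10 to 16 weeks, and the labels give no allele or treatment beyond the strain itself. Nuclei for snRNA-seq were sorted on NeuN, an antigen of neuronal nuclei, to a fixed mix rich in neurons, and the study named a cell type by clustering nuclei of all libraries together. The counts of a library are therefore sums over its ODC nuclei, in which fewer nuclei of a given state and less RNA per nucleus cannot be told apart.

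Oligodendrocytes wrap axons in myelin, a lipid-rich membrane whose compaction depends on a few abundant proteins such as myelin basic protein. They arise from precursor cells under the control of transcription factors that include SOX10, OLIG2 and MYRF, and a mature cell goes on making cholesterol, galactolipids and very long chain fatty acids for its sheath. They carry receptors for glucocorticoids, the steroid hormones released under stress and over the daily cycle. Liganded receptor binds DNA at paired copies of a short hexamer and raises transcription of genes such as Sgk1, Fkbp5, Zbtb16, Tsc22d3 and Per1.

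The ODC sums rested on 844 and 972 nuclei in B6 libraries 2 and 3 and on 535 and 510 nuclei in D2 libraries 2 and 3. Total counts were 1945451 and 2581231 in B6 and 1389297 and 1483011 in D2, or 2305 to 2908 counts per nucleus. Members held 98.4% to 98.6% of the B6 counts and 95.9% to 96.3% of the D2 counts. Symbols counted in B6 alone numbered 2474 and those counted in D2 alone 4604. Of these, 57 and 168 had at least 50 counts in their strain. Malat1, a nuclear noncoding RNA, took 16.1% and 16.6% of the B6 counts and 21.0% and 21.9% of the D2 counts. Transcripts coded by the mitochondrial genome took 0.798% and 1.05% in B6 against 0.205% and 0.128% in D2. The cell type label held against its markers: the summed level of the myelin genes lay between 17666 and 20060 CPM (counts scaled to one common total over the tested symbols in every library) in every library, and that of the precursor markers between 497 and 707 CPM. Defining markers of other cells were low but present. Pdgfra of precursors had 13, 16, 1 and 8 counts in B6 libraries 2 and 3 and D2 libraries 2 and 3. Cspg4, also of precursors, had 25, 36, 40 and 24. The summed precursor level was 497 and 575 CPM in B6 and 707 and 698 CPM in D2. Gad1 of inhibitory neurons had 6, 40, 17 and 1 counts, and Aqp4 of astrocytes 28, 21, 14 and 11. Slc17a7 of excitatory neurons had 150, 169, 81 and 55, and Cx3cr1 of microglia 56, 98, 41 and 50. The counts of these single markers are not scaled to library size.

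Across the 11291 transcripts, 1582 differed between the strains at an adjusted p under 0.05 in edgeR (called below), which is 14% of those tested. The 693 called higher in D2 were 6.14% and the 889 called lower 7.87%, while the median log2 fold change (D2 minus B6) over all transcripts was 0.01. An absolute log2 fold change of at least 1 was reached by 794 called transcripts (7.03%), 299 higher (2.65%) and 495 lower (4.38%). In 1577 of the 1582 both D2 libraries lay on one side of both B6 libraries. The calls were made on these same values, so this separation is no further support for them. DESeq2, the study's own tool, called 637, all of them among the 1582, and without D2 library 3 edgeR called 945. Every fold change below is D2 minus B6 on the log2 scale with its standard error, and CPM values are scaled by the TMM factors of edgeR.

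**Figure D1:**
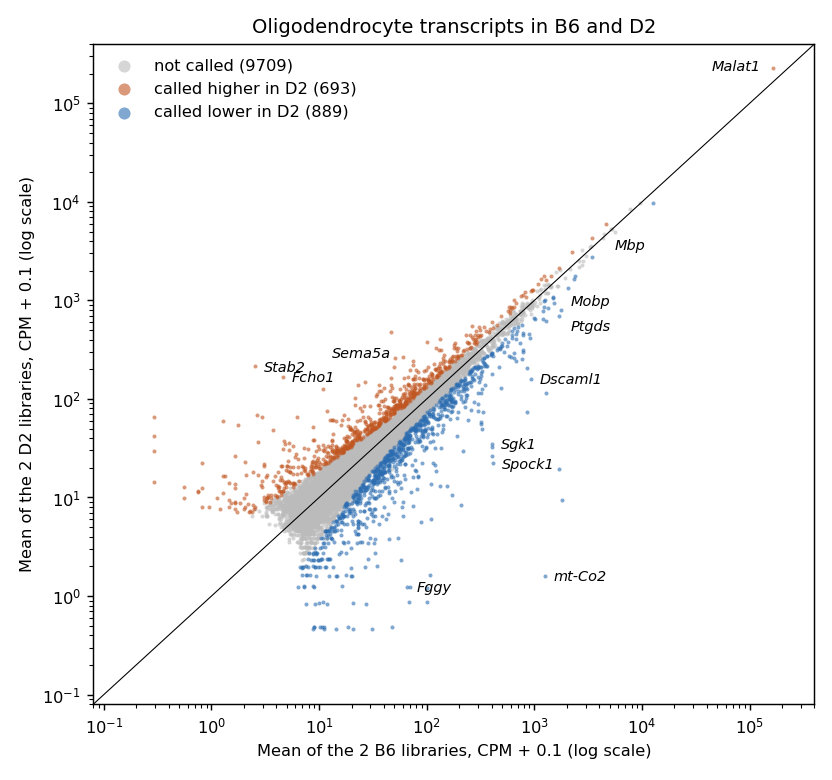
Mean level of each tested transcript in the 2 D2 libraries against that in the 2 B6 libraries, in CPM + 0.1 on log axes, with the diagonal as the line of equal level. Orange points were called higher in D2 (693), blue points lower (889) and grey points were not called. Mbp lies on the diagonal, while Stab2 and Fcho1 lie far above it and Spock1, Sgk1, Fggy and mt-Co2 far below.

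The largest falls among transcripts that overlap no other gene on their strand included single genes far lower in D2. Spock1, which codes for the proteoglycan testican-1, had 466 and 356 CPM in the B6 libraries and 19.97 and 24.1 CPM in the D2 libraries (log2 fold change -4.21 ± 0.19, adjusted p = 3.49e-14, edgeR). Its gene spans chr13:57421195-57908332 on the minus strand (GRCm38). Fggy, a carbohydrate kinase gene, had 73.3 and 58.6 CPM in B6 and 1.54 and 0.731 CPM in D2, from 292 counts against 3, a B6 to D2 ratio of 57.7 with an exact 95% counting interval of 19.5 to 281. Plekhh2 had 484 counts in the B6 libraries together, and 4 and 0 in the D2 libraries. A gene was named here only if both D2 libraries lay below both B6 libraries.

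Others of the 12 largest falls varied in size and in counts. The noncoding RNA 7630403G23Rik had 180 and 275 counts in B6 and 2 and 0 in D2 (log2 fold change -6.94 ± 0.40). Efemp1, which codes for the extracellular matrix protein fibulin-3, had 17.8 and 38.5 CPM in B6 against 3.07 and 1.46 CPM in D2. Pkd2l1, a cation channel gene, had 24.6 and 14.6 CPM against 1.54 and 1.46 CPM, and Fam189a2 29.8 and 23.9 CPM against 1.54 and 2.19 CPM. The antisense transcript Gm15564 had 117 counts in B6 and 2 in D2, a B6 to D2 ratio of 34.7 (counting interval 9.38 to 290). Among genes that overlap another on their strand, and whose counts are therefore uncertain, Cpne1 had 213 counts in B6 and 1 in D2.

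The largest rises were as marked. Stab2, which codes for the scavenger receptor stabilin-2 known from sinusoidal endothelium, had 3.66 and 1.16 CPM in B6 and 196 and 231 CPM in D2 (log2 fold change 6.54 ± 0.27, adjusted p = 8.89e-15, edgeR). The gene lies at chr10:86841198-87008025 on the minus strand, and transcripts annotated on the opposite strand, Gm16268 and Gm16271, were also higher in D2, with 1 against 79 and 5 against 160 counts. Whether counting used the strand is not given in the sources used here, so a gene and its antisense partner cannot be told apart where both are annotated, as they are for 13 of the 24 largest changes. Fcho1, an endocytic adaptor gene with no such partner, had 6.28 and 2.697 CPM in B6 and 160 and 175 CPM in D2 (log2 fold change 5.29 ± 0.24, adjusted p = 6.04e-14, edgeR). Separate libraries were a condition for naming either gene.

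Mylk, the gene of myosin light chain kinase, had 3.14 and 1.93 CPM in B6 and 70.7 and 68.0 CPM in D2. Mnd1, a gene of meiotic recombination, had 0 and 1 counts in B6 and 43 and 70 in D2, and the noncoding RNA Gm47015 had 0 and 1 against 84 and 92. For Mnd1 the ratio of D2 to B6 was 191 with a counting interval of 33.6 to 7601, so its size was poorly fixed. Banf2, Ifnk, Mucl1, Gm12496, Gm16193 and 4930417H01Rik made up the rest of the 12, with log2 fold changes from 3.45 to 4.91. Of the overlapping genes, Slpi, a protease inhibitor gene, had 6.803 and 5.39 CPM in B6 against 66.8 and 64.3 CPM in D2, and Sv2c, a synaptic vesicle protein gene, 2.62 and 4.62 CPM against 45.3 and 51.2 CPM.

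Several transcripts that glucocorticoids are known to induce were lower in D2. The list of immediate early, heat shock and glucocorticoid-induced genes had 30 of 47 members tested, with a median log2 fold change of -0.49. Of these, 15 were called lower, 3 higher and 12 not called (60% called, against 14% of all transcripts). Over the 602 tested symbols of all 22 lists, 29.2% were called. The lists were chosen with earlier results of these data known, so the contrast with 14% is no independent support. Both D2 libraries lay below both B6 libraries in all 15 that fell. Such separation was general, in 1577 of the 1582 called transcripts. Sgk1, a kinase gene of ion transport and cell survival, had 533 and 277 CPM in B6 and 34.6 and 35.1 CPM in D2 (log2 fold change -3.53 ± 0.24, adjusted p = 1.07e-10, edgeR). It was called under all 12 alternatives, between -3.93 and -2.99. The promoter of Sgk1 is shown because it held a whole paired element. Sgk1 has 6 promoters of 300 bases (250 before to 50 after the start) in the RefSeq table for GRCm38.p6, and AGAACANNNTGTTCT, the same on both strands, occurred in 1 of them, at chr10:21993640-21993939 on the plus strand, and in 3 of all 32851 promoters (0.00913%). The capitals mark each TGTTCT or AGAACA hexamer, the paired ones together:
Sgk1: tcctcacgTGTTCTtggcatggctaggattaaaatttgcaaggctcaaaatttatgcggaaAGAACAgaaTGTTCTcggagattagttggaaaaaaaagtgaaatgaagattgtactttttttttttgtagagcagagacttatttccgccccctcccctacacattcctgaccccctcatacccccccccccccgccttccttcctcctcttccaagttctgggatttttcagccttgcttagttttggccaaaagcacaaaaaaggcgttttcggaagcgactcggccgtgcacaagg

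The hexamer alone was common, in 19% of the 32851 promoters on either strand, and occurred in 4 of the 22 promoters of the called lower members (18.2%), of which 3 belong to Sgk1 and 1 to Tsc22d3, and in 5 of the 51 of the whole list (9.8%). A match is a run of letters and not a site of binding. The peak of the second readout, single-nucleus ATAC sequencing (snATAC-seq) of open chromatin, that reached into the last 34 bases of this Sgk1 promoter had 32 and 37 counts in B6 libraries against 27 and 28 in D2 (log2 fold change -0.06 ± 0.28, adjusted p = 0.977, edgeR). The transcript thus differed where the counts of the peak did not differ beyond their error.

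Fkbp5, which codes for a chaperone that dampens the glucocorticoid receptor, had 212 and 97.5 CPM in B6 and 13.1 and 13.2 CPM in D2 (-3.53 ± 0.32, adjusted p = 2.03e-08, edgeR), although it overlaps other genes on its strand. Zbtb16, the gene of the zinc finger repressor PLZF, had 430 and 219 CPM against 58.4 and 40.2 CPM (-2.71 ± 0.24), and Plin4, a lipid droplet coat protein gene, 41.3 and 23.9 CPM against 2.304 and 5.12 CPM (-3.06 ± 0.42). For these genes and Sgk1, B6 library 2 held the higher value of its pair, as it did for 10 of the 15 that fell. Tsc22d3, which codes for the leucine zipper GILZ, had 208 and 160 CPM in B6 and 90.6 and 96.5 CPM in D2, and Ddit4, an inhibitor of mTOR complex signalling, 51.3 and 29.3 CPM against 16.9 and 11.7 CPM. Hif3a, chosen after its values were seen and no member of the list, had 42.4 and 22.3 CPM against 3.84 and 2.92 CPM (-3.20, adjusted p = 1.03e-05, edgeR). Of the receptors, Nr3c1, the glucocorticoid receptor, had 155 and 158 CPM in B6 and 155 and 221 CPM in D2 and was not called (0.27, adjusted p = 0.268, edgeR). It was called without D2 library 2 (0.50, adjusted p = 0.0356, edgeR) and stood at -0.0095 without D2 library 3. Nr3c2, the mineralocorticoid receptor, which overlaps another gene on its strand, had 114 and 113 CPM against 85.3 and 76.8 CPM and lost its call whichever library was left out.

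Heat shock transcripts were among those that fell. Hspa8, the constitutive HSP70 chaperone, had 131 and 153 CPM in B6 and 46.9 and 60.7 CPM in D2, and its partner Dnaja1 80.6 and 90.9 CPM against 27.7 and 46.8 CPM. Hsph1 had 60.7 and 47.0 CPM against 26.1 and 26.3 CPM, and Hsp90aa1 220 and 226 CPM against 131 and 152 CPM. The 3 that rose were immediate early genes, but Nr4a1, also an immediate early gene, was called lower, a call lost with DESeq2. Jun, a subunit of the AP-1 factor, had 23.03 and 28.1 CPM in B6 and 73.7 and 57.8 CPM in D2 (1.34 ± 0.20), Jund 35.6 and 34.7 CPM against 89.9 and 84.1 CPM (1.31 ± 0.17), and Btg2 4.71 and 4.62 CPM against 14.6 and 13.9 CPM, a call that Btg2 lost with DESeq2 and without 3 of the 4 libraries. The list thus moved in both directions. Without D2 library 3, 11 members were called lower and 2 higher.

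**Figure D2:**
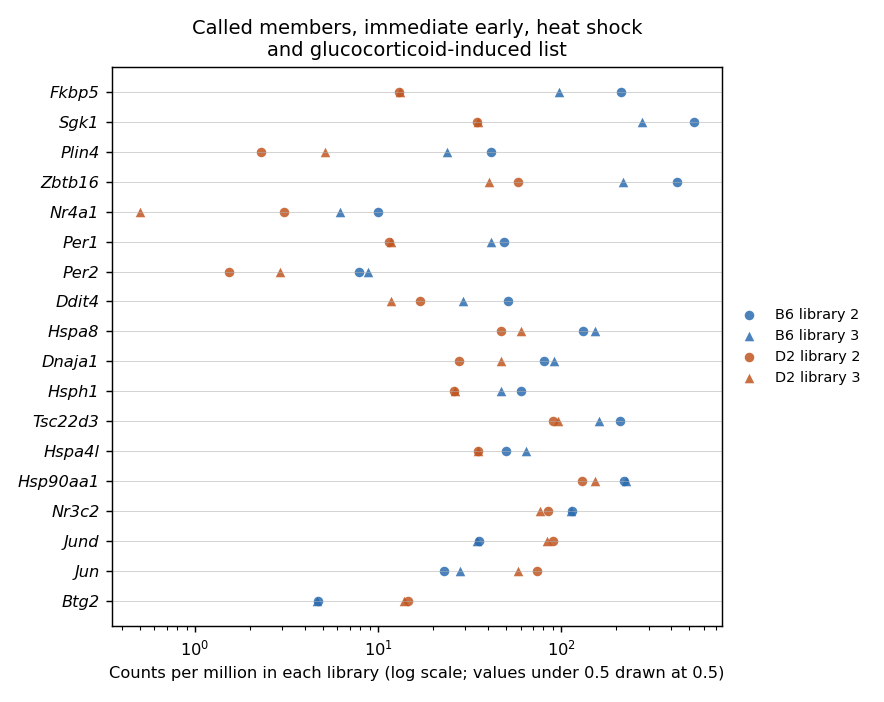
Level of the 18 called members of the immediate early, heat shock and glucocorticoid-induced list in each library, in CPM on a log axis, with B6 in blue and D2 in orange and a symbol for each library number. From Fkbp5 to Nr3c2 both D2 libraries lie left of both B6 libraries, and for Jund, Jun and Btg2 they lie right of them. D2 library 3 of Nr4a1, with 0 CPM, is drawn at 0.5.

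Of 21 tested genes of the circadian clock, 3 were called lower and 1 higher (19%, against 14% of all transcripts). Per1, a repressor of the clock that also answers to glucocorticoids, had 48.7 and 41.2 CPM in B6 and 11.5 and 11.7 CPM in D2 (-1.94 ± 0.26, adjusted p = 8.39e-06, edgeR). Bhlhe41, another repressor, had 36.6 and 43.1 CPM against 20.7 and 19.0 CPM, a call lost with DESeq2. Per2 and Nfil3, at 38 against 6 and 15 against 26 counts, lost their calls whenever a library was left out. Arntl, the activator BMAL1, had 24.1 and 19.3 CPM in B6 and 16.9 and 22.7 CPM in D2 (-0.11 ± 0.27, adjusted p = 0.855, edgeR), with overlapping groups. The hour at which tissue was taken is not given in the sources used here, and its part in these values was not tested.

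Mbp, Mag and Cnp of the myelin sheath were not called, and several other myelin transcripts were higher in D2. Of the 34 members of the myelin membrane list 30 were tested, and the rest had counts in 1 strain alone. Among the 30, 8 were called higher and 2 lower (33.3% called, against 14% of all transcripts). A positive log2 fold change was found in 24, and the median was 0.21. With symbols counted in 1 strain let in, 34 were tested, of which 10 were called higher and 4 lower. Mbp, myelin basic protein, had 4458 and 4394 CPM in B6 and 4703 and 4839 CPM in D2 (0.11 ± 0.08, adjusted p = 0.434, edgeR) and was not called. Mag and Cnp, at 0.24 ± 0.10 and 0.34 ± 0.13, had both D2 libraries above both B6 libraries and unadjusted p-values of 0.0281 and 0.0165, but adjusted p-values of 0.129 and 0.0896 in edgeR. Mag was called without B6 library 2 (0.36, adjusted p = 0.00229, edgeR) and Cnp without D2 library 2 (0.47, adjusted p = 0.0444, edgeR). Mog, a protein of the outer sheath surface, was called higher, with 934 and 957 CPM in B6 and 1236 and 1311 CPM in D2 (0.43 ± 0.10, adjusted p = 0.00322, edgeR), but not without D2 library 3.

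Rises that held under every alternative were of 4 other membrane proteins. Opalin, a glycoprotein of the sheath, had 330 and 294 CPM in B6 and 484 and 528 CPM in D2 (0.70 ± 0.12, adjusted p = 1.27e-04, edgeR). Plekhb1 had 61.2 and 63.6 CPM against 117 and 113 CPM (0.88 ± 0.15), Pllp, plasmolipin, 79.5 and 75.1 CPM against 123 and 135 CPM (0.74 ± 0.15), and the tetraspanin Cd9 143 and 123 CPM against 201 and 257 CPM (0.79 ± 0.14). Mobp, the myelin-associated basic protein gene, went the other way, with 2133 and 1430 CPM in B6 and 794 and 808 CPM in D2 (-1.15 ± 0.13, adjusted p = 5.36e-07, edgeR), and it overlaps the annotated gene Gm38642 on its strand. Gm38642, chosen after its values were seen, had 10.5 and 11.2 CPM in B6 and 128 and 124 CPM in D2. Sirt2, the other that fell, lost its call with DESeq2 and without B6 library 2 or D2 library 3. Without D2 library 3, 4 members of the list were called higher and 2 lower, and DESeq2 called 5 and 1. Without D2 library 2 there were 11 and 2.

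Transcription factors of the lineage were called higher more often than lower. Among 34 tested, 7 were called higher and 1 lower (23.5% called, against 14% of all transcripts), with a median of 0.09. Sox10, which drives myelin genes, had 270 and 304 CPM in B6 and 465 and 508 CPM in D2 (0.76 ± 0.12, adjusted p = 5.1e-05, edgeR). Creb5 had 254 and 275 CPM against 540 and 558 CPM (1.05 ± 0.11, adjusted p = 3.51e-07, edgeR), Nkx6-2, a homeodomain factor of myelinating cells, 70.7 and 72.0 CPM against 114 and 152 CPM (0.90 ± 0.16), and Thrb, a thyroid hormone receptor, 19.4 and 26.6 CPM against 45.3 and 42.4 CPM (0.91 ± 0.23, lost with DESeq2). The groups did not overlap in any of these, as in nearly all called transcripts. Olig2 and Myrf were not called, at 0.41 ± 0.27 and 0.01 ± 0.16. Klf9, a factor induced by thyroid hormone and by glucocorticoids, was the one that fell, from 107 and 88.6 CPM to 37.6 and 27.8 CPM (-1.58 ± 0.19, adjusted p = 1.39e-06, edgeR). DESeq2 called 3 of the list higher and 1 lower.

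**Figure D3:**
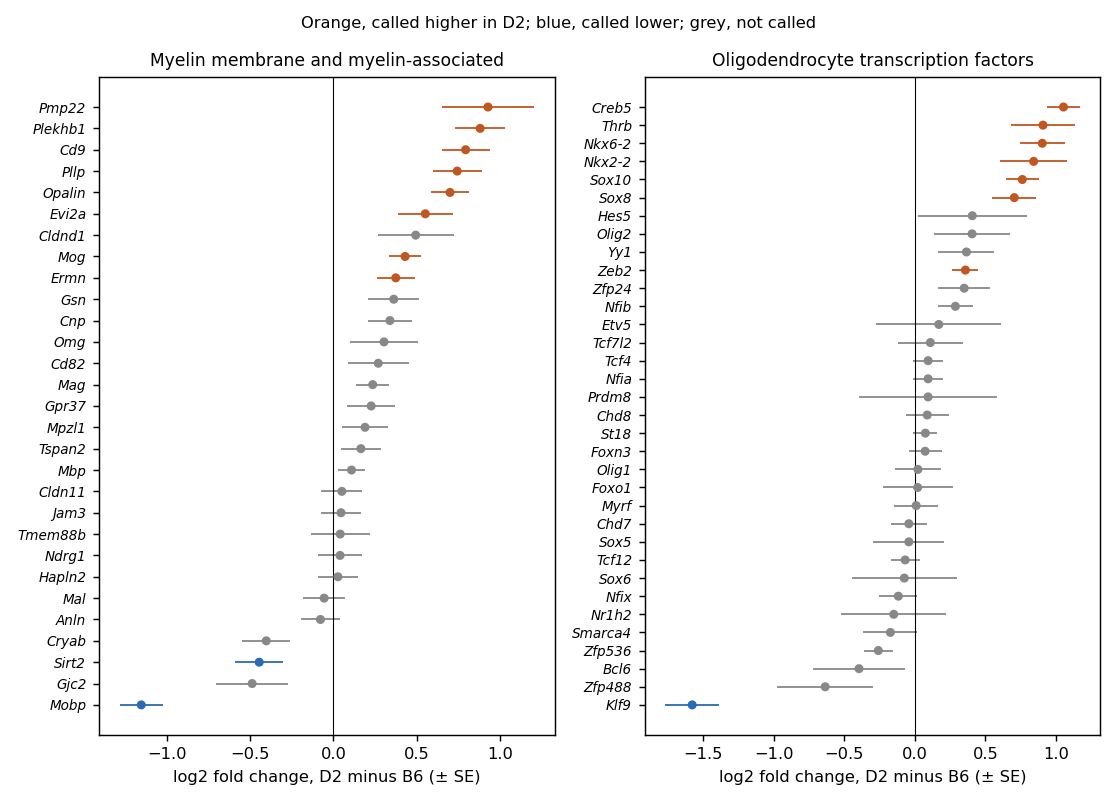
Log2 fold change of D2 minus B6 with its standard error for 29 of the 30 tested myelin genes and the 34 tested transcription factors, ordered by value. Orange points were called higher in D2, blue points lower and grey points not called. Most points lie to the right of 0 by less than 1, with Mobp and Klf9 apart at the bottom.

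Few cholesterol genes were called, and myelin lipid genes were called in both directions. Of 35 cholesterol genes tested, 2 were called higher and none lower (5.71%, below the 14% of all transcripts). Dhcr7, the last reductase of the pathway, was among them, with 14.1 and 15.0 CPM in B6 and 32.3 and 27.1 CPM in D2, a call lost with DESeq2 and without D2 library 2. At an unadjusted p under 0.05 there were 7. DESeq2 called 1, and 4 were called higher without B6 library 2. The fatty acid and sphingolipid list had 51 tested, 7 called higher and 4 lower (21.6%, against 14% of all transcripts). Elovl7, an elongase of long chain fatty acids, had 164 and 201 CPM in B6 and 378 and 361 CPM in D2 (1.01 ± 0.13, adjusted p = 3.26e-06, edgeR). Gal3st1, which makes sulfatide, had 145 and 123 CPM against 196 and 214 CPM (0.62 ± 0.14), and Ugt8a, which makes galactosylceramide, 651 and 655 CPM against 814 and 893 CPM (0.39 ± 0.10), a call lost with DESeq2 and without D2 library 3. Pex5l, a gene of peroxisome targeting, fell from 2493 and 2205 CPM to 1668 and 1658 CPM (-0.50 ± 0.09) and overlaps other genes on its strand. Without D2 library 3, 2 of this list were called in each direction.

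Genes of adhesion, the paranode and the cytoskeleton were lower in D2 more often than higher. All 69 were tested, and 21 were called lower and 6 higher (39.1% called, against 14% of all transcripts), with a median of -0.19. Dscaml1, a homophilic adhesion molecule, had 1076 and 766 CPM in B6 and 165 and 154 CPM in D2 (-2.53 ± 0.14, adjusted p = 3.92e-12, edgeR). Rhou, a small GTPase, had 373 and 319 CPM against 129 and 149 CPM (-1.31 ± 0.14), and Nrxn3, a presynaptic adhesion gene, 156 and 230 CPM against 74.5 and 71.7 CPM (-1.41 ± 0.17). Several guidance genes went the other way. Sema5a, a semaphorin, had 34.5 and 64.0 CPM in B6 and 224 and 193 CPM in D2 (2.05 ± 0.19, adjusted p = 2.07e-08, edgeR), Sema6d 231 and 268 CPM against 455 and 442 CPM, and Slit2 18.8 and 22.7 CPM against 46.1 and 49.0 CPM. Of the 69 genes, 34 overlap another gene on their strand. With such genes left out 35 were tested, of which 7 were called lower and 4 higher, and without D2 library 3 there were 11 and 5.

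Ion channels and transporters had 5 called higher and 12 lower of 54 tested (31.5% called, against 14% of all transcripts). Slc5a11, a sodium-coupled inositol transporter, had 25.1 and 17.7 CPM in B6 and 65.3 and 109 CPM in D2 (2.05 ± 0.23, adjusted p = 5.65e-07, edgeR). Hcn2, a pacemaker channel present in myelinating cells, had 37.7 and 36.6 CPM against 85.3 and 104.6 CPM (1.36 ± 0.17, adjusted p = 2.69e-06, edgeR). Kcnab1, a potassium channel subunit, fell from 866 and 702 CPM to 326 and 273 CPM (-1.39 ± 0.13). Cacna1a, a neuronal calcium channel gene, had 47.1 and 50.9 CPM in B6 and 30.7 and 18.3 CPM in D2, and lost its call with DESeq2 and without D2 library 3. Without that library 3 of the list were called higher and 4 lower, and DESeq2 called 2 and 4.

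Of the neurotransmitter receptors, 13 of 43 tested were called lower and 1 higher (32.6% called, against 14% of all transcripts), with a median of -0.42. Grm7, a metabotropic glutamate receptor, had 627 and 676 CPM in B6 and 298 and 292 CPM in D2 (-1.14 ± 0.11, adjusted p = 7.58e-08, edgeR). Gria1, an AMPA receptor subunit, had 177 and 166 CPM against 97.6 and 68.7 CPM, and Grin2a, an NMDA receptor subunit, 129 and 124 CPM against 79.1 and 45.3 CPM. Neuron markers moved with this group. Of 15 tested markers of excitatory and general neurons, 8 were called lower and none higher (1 of the 5 tested with overlapping genes left out, 11 of 15 without D2 library 2), with a median of -0.69 and a summed level of 2821 and 3032 CPM in B6 and 2179 and 1573 CPM in D2. Slc17a7 among them had 78.5 and 65.1 CPM against 62.2 and 40.2 CPM and was not called (adjusted p = 0.0965, edgeR), and 15 of the 16 listed names were tested. The part of RNA from neurons in the values of the receptors, or of Nrxn3 and Cacna1a above, was not tested. Without D2 library 3, in which the neuron sum was lowest, 8 receptors were called lower and none higher.

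Signalling genes had 8 called higher and 17 lower of 77 tested (32.5% called, against 14% of all transcripts), Sgk1 among them. Ptgds, lipocalin-type prostaglandin D2 synthase, had 1799 and 1610 CPM in B6 and 543 and 834 CPM in D2 (-1.31 ± 0.13, adjusted p = 1.3e-07, edgeR). Il33, an alarmin cytokine of mature oligodendrocytes, had 289 and 303 CPM against 87.6 and 143 CPM (-1.36 ± 0.16, adjusted p = 1.29e-06, edgeR), and Dusp26, a phosphatase gene, 37.7 and 49.7 CPM against 10.8 and 14.6 CPM (-1.79 ± 0.27). Among the rises, Pde4d, a cyclic AMP phosphodiesterase, had 118 and 152 CPM in B6 and 296 and 328 CPM in D2 (1.20 ± 0.14), Dusp16 111 and 123 CPM against 204 and 250 CPM (0.96 ± 0.14), and Rnf220 1272 and 1207 CPM against 1800 and 1712 CPM (0.50 ± 0.09). Without D2 library 3, 4 were called higher and 9 lower.

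Of 27 tested markers of mature subclasses, 8 were called higher and 7 lower (55.6% called, against 14% of all transcripts), with a median of 0.21. Il33 and Ptgds were 2 of the 7, and Neat1, a nuclear noncoding RNA that overlaps other genes on its strand, fell from 812 and 881 CPM to 81.4 and 64.3 CPM (-3.54 ± 0.14, adjusted p = 4.26e-15, edgeR). Car2, carbonic anhydrase II, rose from 724 and 900 CPM to 1170 and 1245 CPM (0.57 ± 0.11), S100b from 86.9 and 86.3 CPM to 136 and 146 CPM (0.70 ± 0.14), and Trf, transferrin, from 1063 and 1080 CPM to 1278 and 1636 CPM (0.44 ± 0.11), the last call lost with DESeq2 and without D2 library 3. Among 15 tested markers of newly formed cells, 2 were called lower, Nfasc and Tmem163 (13.3%, against 14% of all transcripts called and 7.87% called lower), none with DESeq2, 6 without B6 library 2 and 6 without D2 library 2. Tmem163, a zinc transporter gene, had 143 and 125 CPM in B6 and 23.04 and 2.92 CPM in D2 (-3.38 ± 0.31, adjusted p = 1.67e-08, edgeR), with the D2 libraries far apart from each other, and DESeq2 did not call it. Of 9 tested precursor markers 3 were called (33.3%, against 14% of all transcripts). Dscam and Pcdh15 were called higher, with Dscam at 72.7 and 90.5 CPM against 135 and 148 CPM, and Tnr lower.

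Antigen presentation, complement and interferon genes were mostly too low to test, with 19 of 59 tested, 2 called higher and 3 lower (26.3%, against 14% of all transcripts). C4b, complement component 4B, had 46 counts in B6 against 2 in D2. It shares sequence with a near copy, which makes its counts uncertain, and its call was lost without B6 library 2. Iron, glutathione and antioxidant genes gave 1 call in each direction of 33 tested (6.06%): Trf, and Gpx4, which reduces lipid peroxides, with 60.2 and 71.7 CPM in B6 against 32.3 and 46.8 CPM in D2. DESeq2 called neither.

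Genes at which B6 and D2 are known to differ in their DNA were rarely called. Of 19 tested, Grm7 alone was called (5.26%, against 14% of all transcripts), while 6 passed at an unadjusted p under 0.05 and DESeq2 called 1. With any 1 library left out, 2 were called. Alad, aminolevulinate dehydratase of heme synthesis, had 5.23 and 4.62 CPM in B6 and 15.4 and 7.31 CPM in D2 (1.19 ± 0.44, adjusted p = 0.0771, edgeR), and was called without D2 library 3 (1.64, adjusted p = 0.0415, edgeR). Glo1, glyoxalase 1, had 25.1 and 18.5 CPM against 27.7 and 31.4 CPM (0.46 ± 0.25, adjusted p = 0.251, edgeR), and Gabra2, a GABA-A receptor subunit, 48.1 and 64.7 CPM against 51.5 and 41.7 CPM (-0.30 ± 0.19, adjusted p = 0.363, edgeR). The groups were apart for Alad and Glo1 and overlapped for Gabra2. Myo5a and Ptprd had log2 fold changes of -0.01 and 0.03, and Kcnj9 one of 0.76 ± 0.28 (adjusted p = 0.0741, edgeR), called without B6 library 3 (0.97) and without D2 library 2 (0.98).

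Of the other cell types, inhibitory neurons had 2 of 10 markers called lower (20%), astrocytes 1 of 13 (7.69%), microglia 1 of 6 (16.7%) and vascular cells none of 3, and none was called higher, against 7.87% of all transcripts called lower. The summed level of the microglial markers was 182 and 162 CPM in B6 and 90.6 and 106 CPM in D2. The summed level of the inhibitory markers was 2188 and 2115 CPM in B6 and 2327 and 2368 CPM in D2, and that of the astrocyte markers 567 and 599 CPM against 555 and 499 CPM.

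All 12 tested mitochondrial transcripts were called lower in D2, and unevenly. Cytochrome oxidase transcripts mt-Co2 and mt-Co3 had 5728 and 8245 counts in B6 and 4 and 25 in D2, and mt-Co1 had 1139 and 1434 CPM against 135 and 95.8 CPM (-3.48 ± 0.15). By contrast mt-Nd1 had 419 and 616 CPM against 361 and 233 CPM (-0.81 ± 0.17) and mt-Cytb 686 and 893 CPM against 575 and 355 CPM (-0.77 ± 0.16). In nuclei these counts can come from mitochondrial RNA that stays attached or free in the suspension. The nuclear genome also holds close copies of mitochondrial genes, so their values are uncertain. Whether both strains were counted on the same gene list is not given in the sources used here. Its part in the uneven values was not tested. The study also filtered nuclei on their mitochondrial share. DESeq2 called 6 of the 12, all lower.

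**Figure D4:**
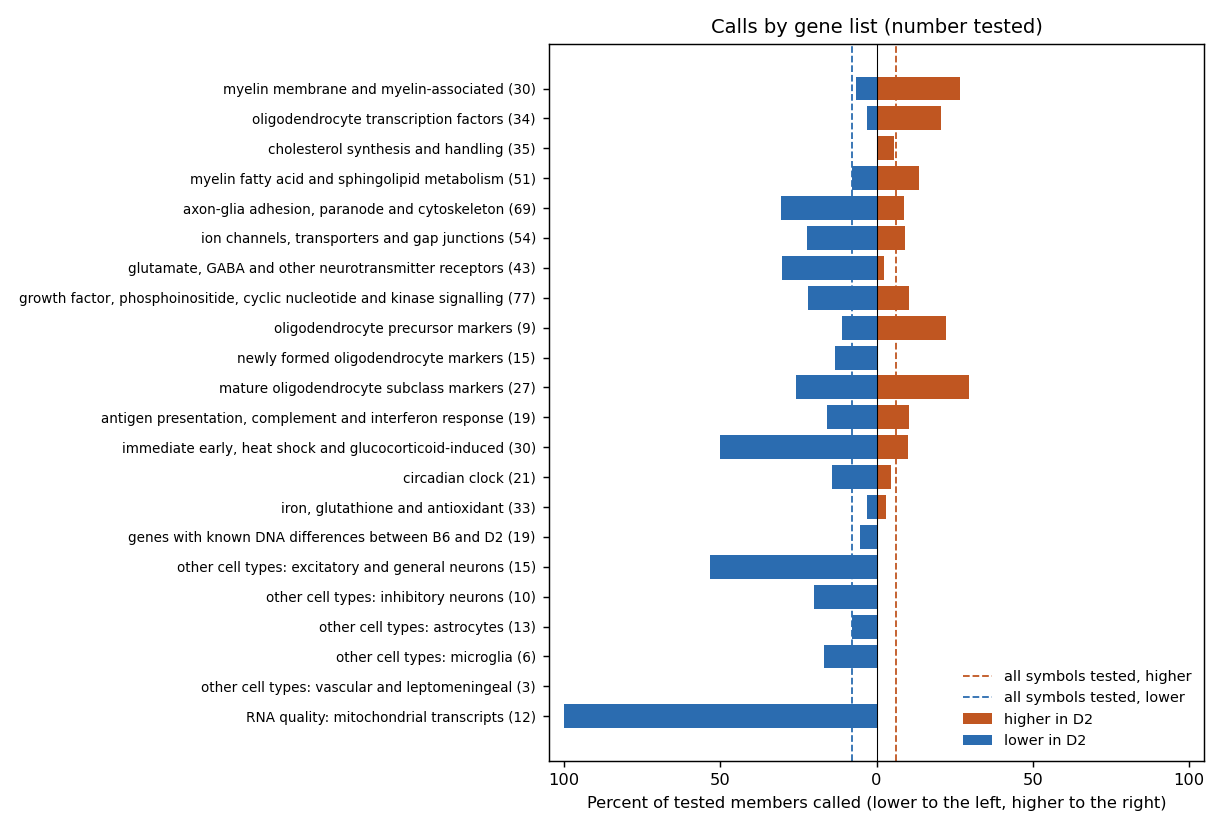
Percent of the tested members of each list called lower in D2 (blue, to the left) and higher (orange, to the right), with the number tested in parentheses. Dashed lines give the share of all 11291 transcripts called lower (7.87%) and higher (6.14%). The stress, neuron and mitochondrial lists reach farthest to the left, and the mature subclass and myelin lists farthest to the right.

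Calls were spread over the genome and depended on gene overlap. Between 7.89% (X) and 18.4% (17) of the transcripts of a chromosome were called. Of 2872 transcripts that overlap another gene on their strand, 5.43% were called higher and 15% lower, and of 8295 that overlap none 6.31% were called higher and 5.33% lower, so lower calls outnumbered higher ones among overlapping genes and not among the others. With overlapping genes left out before the fit, 427 were called higher and 435 lower. Of the genes named above and not yet said to overlap, Malat1, mt-Co3, mt-Nd1, Gm16271, Pdgfra, Slc17a7, Ptprd, Creb5, Klf9, Nrxn3, Rhou, Slit2, Kcnab1, Grm7, Pde4d, Hspa8, Dnaja1, Trf, Pcdh15, Tnr and Glo1 also overlap another gene on their strand, and their counts are uncertain to that extent. Of 86 ribosomal protein symbols, 17 were called lower and 1 higher (20.9% called, against 14% of all transcripts), with a median of -0.16. Long intergenic noncoding RNAs were called in 24.2% of 260 and protein-coding transcripts in 13% of 10047.

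The snATAC-seq libraries held few ODC nuclei, 41 and 33 in B6 and 36 and 26 in D2, sorted without NeuN. Of 26189 peaks tested, 23 were called (0.0878%), 12 higher (0.0458%) and 11 lower (0.042%) in D2, while 1390 passed at an unadjusted p under 0.05 and DESeq2 called 4. Leaving out 1 library in turn gave 13 to 22 calls, the fewest without B6 library 3. Of the 11 lower peaks, 8 had no count in either D2 library. The largest falls lay on scaffolds outside the assembled chromosomes, JH584304.1 with 71 and 79 counts in B6 and GL456216.1 with 60 and 81. Another covered H2-K2 on chromosome 17. Among the higher peaks, the largest rise (4.80) lay in Sfi1 on chromosome 11. D2 reads were mapped to another copy of the genome than B6 reads, and its part in these peaks was not tested. Among the 106 transcripts named by rule, 76 had a tested peak within 1000 bases of their start, 79 peaks in all, of which 11 passed at an unadjusted p under 0.05 and 3 were called.

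The 3 called peaks lay at the starts of Fggy, Ptgds and Alad. The Fggy peak, chr4:95556791-95558977, had 14 and 19 counts in B6 and 1 and 0 in D2 (-4.49 ± 0.84, adjusted p = 0.00331, edgeR), beside a transcript change of -5.78 ± 0.41. The Ptgds peak, chr2:25469070-25470104, had 26 and 33 counts against 6 and 6 (-2.01 ± 0.41, adjusted p = 0.015, edgeR), beside -1.31 ± 0.13 for the transcript. The Alad peak, chr4:62519241-62520261, had 9 and 6 counts in B6 and 22 and 32 in D2 (2.09 ± 0.41, adjusted p = 0.00572, edgeR), beside a transcript change of 1.19 ± 0.44 that was not called. In all 3 the peak and the transcript differed in the same direction. Alad is among the genes at which the strains are known to differ in their DNA. The part of that difference in its peak and transcript was not tested. Another called peak, chr9:45487130-45487662, chosen after its values were seen, lay inside Dscaml1 and had 31 and 27 counts against 5 and 6 (-2.11), where the transcript was lower as well.

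The promoter of Ptgds and 1 of the 2 of Fggy in the table are shown because all 300 bases of each lay within the called peak. They run 5′ to 3′ on the strand of the gene in GRCm38.p6, from RefSeq, Fggy at chr4:95557257-95557556 on the plus strand and Ptgds at chr2:25469700-25469999 on the minus strand. Neither holds the hexamer TGTTCT on either strand, so no base is in capitals:
Fggy: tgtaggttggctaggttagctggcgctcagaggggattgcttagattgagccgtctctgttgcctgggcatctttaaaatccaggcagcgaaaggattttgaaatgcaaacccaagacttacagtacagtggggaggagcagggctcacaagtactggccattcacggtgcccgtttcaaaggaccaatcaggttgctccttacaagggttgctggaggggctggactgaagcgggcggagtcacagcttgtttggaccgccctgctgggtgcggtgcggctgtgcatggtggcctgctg
Ptgds: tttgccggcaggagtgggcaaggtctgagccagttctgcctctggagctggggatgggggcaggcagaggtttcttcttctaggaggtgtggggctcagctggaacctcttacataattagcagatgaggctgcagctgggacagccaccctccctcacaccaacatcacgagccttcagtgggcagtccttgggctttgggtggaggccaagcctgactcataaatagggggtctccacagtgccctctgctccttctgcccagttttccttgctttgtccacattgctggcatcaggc

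**Figure D5:**
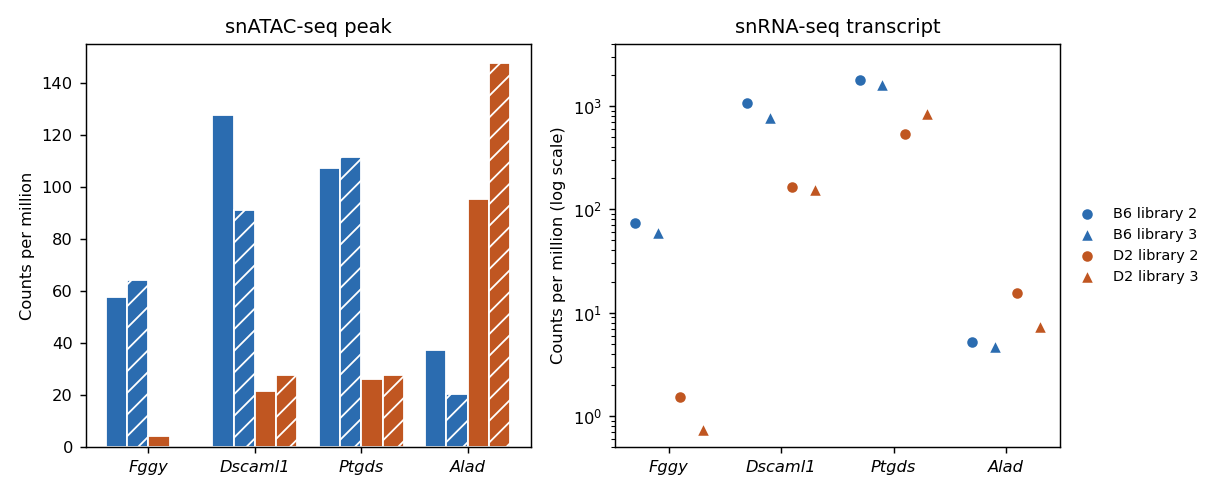
Level of the called peaks at the starts of Fggy, Ptgds and Alad and inside Dscaml1 (left, CPM of snATAC-seq counts, bars from 0) and of the same genes' transcripts (right, CPM of snRNA-seq counts, log axis) in each library, B6 in blue and D2 in orange. The bars and points of D2 lie below those of B6 for Fggy, Dscaml1 and Ptgds and above them for Alad.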

How the data were processed

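Per the methods and labels, the authors used Cell Ranger 6.0.2 with intronic reads for snRNA-seq and Cell Ranger ATAC 2.0.0 for snATAC-seq. B6 reads went to mm10 and D2 reads to a copy of it carrying D2 SNPs. Neither the GENCODE release nor whether both references carried the same gene list is given in the sources used here. The part that unlike gene lists could have in the values was not tested. They filtered nuclei, removed doublets, named cell types (Seurat 4.0.5), merged MACS peaks found in each sample, and deposited raw counts summed per cell type and library, used here as deposited. Only the ODC columns were used. Columns of the remaining cell types (64 for snRNA-seq, 56 for snATAC-seq) and the methylation samples were not analysed here. Columns number libraries 2 and 3 and labels number replicates 1 and 2, so a column was placed by strain only.

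Symbols with counts in both strains were kept by filterByExpr, and peaks with 10 or more counts in the 4 libraries together were tested. The test was the quasi-likelihood F test of edgeR 4.0.16 (R 4.3.3) with TMM normalization, no covariates and Benjamini-Hochberg adjustment. The estimated biological variation (BCV) was 0.0902 in snRNA-seq and 0.114 in snATAC-seq. Each standard error was derived as the absolute fold change over the root of F. Each library pooled about 2 animals, so p-values measure the spread between such pools, and an exact permutation test of 2 against 2 cannot go below 0.333. Counting intervals are exact at 95% and cover counting error only. DESeq2 1.42.0, RLE normalization, other filters, a block and each library left out were alternatives. With a library left out, its strain had 1 library, which was assumed to vary like the pair of the other strain. Scripts were tested on simulated counts.

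Positions and overlaps came from GENCODE vM21 (GRCm38), with 11167 of 11291 symbols matched to exactly 1 gene, and promoters from RefSeq. Named transcripts were the 12 largest changes in each direction at 10 CPM or more with separate libraries, 3 in each direction among overlapping genes, up to 4 per list, 7 oligodendrocyte genes and those with known DNA differences. Further list members were picked for the text once their values had been seen. The members and the 22 lists were chosen with earlier results of these data known. Some list members are not reported here.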

Additional observations from a re-analysis of the deposited data

How the results depend on the processing

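Of 202 called transcripts that are named or on the lists, 108 kept their call and direction under every alternative that gave a value, 82 lost the call with DESeq2, and 22, 26, 23 and 73 lost it without B6 library 2, B6 library 3, D2 library 2 and D2 library 3. The transcripts called, 1582, became 637 with DESeq2 and 862 without overlapping genes, and 945 to 1441 with a library left out, the fewest without D2 library 3. Of those 945, 882 were among the 1582 with the same direction. Those with an absolute log2 fold change of at least 1, 794, became 437, 440 and, with symbols counted in 1 strain let in, 1321. In that last fit 1181 of 2223 calls were higher in D2, a share of 53.1% against 43.8%. List members called, 176, became 95 with DESeq2, 94 without overlapping genes and 110 to 178 with a library left out, the fewest without D2 library 3. RLE normalization gave 1583 calls, no filter 1800, and at least 10 counts 1481. With the library number as a replicate block 1634 transcripts were called. The deviations of same-numbered libraries had a correlation of -0.05 over 9407 transcripts. That is a single value for all transcripts, so it cannot tell whether the libraries were paired for some of them. Peaks called, 23, became 4 with DESeq2, 31 at 20 counts or more and 13 to 22 with a library left out. Among the transcripts reported, sign changes touched only transcripts not called with all 4 libraries. Ptprd was -0.0025 with no filter and Myo5a 0.0025 with the replicate block. With a library left out, Myo5a ranged from -0.15 to 0.17, Ahi1 from -0.37 to 0.00103, Nr3c1 from -0.0095 to 0.50 (called at the latter, without D2 library 2) and Wdfy1 from -0.38 to 0.13. A fit without a library takes its spread from the other strain's pair alone, so a call lost or kept there rests on that assumption. The snATAC-seq sums rest on 26 to 41 nuclei a library, and peaks were tested from 10 counts over the 4 libraries.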
